A study of Mus musculus with 4 samples.

Results

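Cathepsins are the proteases of the lysosome, and the transcripts examined here are 8 cathepsin genes (Ctsa, Ctsb, Ctsc, Ctsd, Ctsh, Ctsl, Ctss and Ctsz) together with 2 genes for cystatins (Cst3 and Cstb), proteins that block cysteine cathepsins. The genes were chosen by name, and all 10 were found among the 52636 gene lines of the count table. They were measured in 4 libraries of mouse Hoxb8 cells, of which 2 carried an empty vector (EV) and 2 expressed DNMT3A R882H (R882H). Lines immortalised with Hoxb8 are used as models of myeloid progenitors, and the R882H substitution of the DNA methyltransferase DNMT3A recurs in acute myeloid leukaemia. Every library is labelled as the same cell line, and the labels name no further treatment. The vector, its promoter, and whether a group is 1 clone or several were not given in the sources used here, nor is it said that replicates were separate cultures, and the p-values therefore reflect only how far these libraries differed, which may be technical.

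Most cathepsins are cysteine proteases that are made as inactive precursors, carried to the lysosome by sorting receptors and activated there by removal of a propeptide in the acid lumen. Ctsd is an aspartic protease and Ctsa a serine carboxypeptidase. Cathepsin S is known in antigen-presenting cells for degrading the invariant chain of MHC class II molecules, and cathepsin C in granulocyte precursors for activating granule serine proteases. Cystatin C, encoded by Cst3, is secreted, and cystatin B, encoded by Cstb, stays in the cytosol and nucleus, where it can block cathepsins that leak from lysosomes.

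Each library held between 5470330 and 5921985 counts. The libraries were made with a 3′ tag protocol that gives about 1 tag per transcript, so that CPM (tags of a gene scaled to the library's normalised size) can be compared between genes without a length correction. Means are given ± SD with n = 2 libraries per group. A gene is said to have risen or fallen only where its edgeR adjusted p, over all 11444 genes with enough counts to be tested, was under 0.05, and log2 fold changes are R882H over EV ± standard error. Dnmt3a itself had 48.0 ± 0.535 CPM in EV against 42.2 ± 0.386 in R882H and was not called (log2 change −0.19 ± 0.15, edgeR adjusted p = 0.334). Whether tags of the vector would be counted as Dnmt3a is not known, so this level is no check of the labels. The Y-linked transcripts Ddx3y (0 and 2 counts in EV against 65 and 41 in R882H) and Eif2s3y (1 and 0 against 26 and 29) separated the groups. Kdm5d and Uty, also Y-linked, were too low to be tested. Xist was present in all 4 libraries, with 1438 to 1880 counts. A difference in the origin of the cells and the action of the DNMT3A variant therefore cannot be told apart in any comparison below. As progenitor markers, Cd34 had 1304 ± 21.5 CPM in EV against 1375 ± 40.4 in R882H and was not called (its exons overlap Gm16897). Mpo, the gene of the granule enzyme myeloperoxidase, rose from 32.7 ± 3.19 to 1242 ± 40.5 CPM (log2 change 5.25 ± 0.17, edgeR adjusted p = 2.45e-23), so the groups differed in a main marker of myeloid progenitors. Hoxb8 itself fell, with 25 and 44 counts in EV against 15 and 4 in R882H. Whether these tags come from the Hoxb8 that immortalised the cells was not given in the sources used here.

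Across the members, cathepsin S and both cystatins rose in R882H, cathepsins L and Z fell, and the other tested cathepsins did not pass the test. Of the 10 members, 9 had enough counts to be tested. Of these 9, 3 rose and 2 fell, or 5 called in all, beside 38.8% called among all tested genes (19.3% higher and 19.4% lower). The median log2 fold change of the 9 was −0.04, against 0.01 over all tested genes. Both R882H libraries lay above both EV libraries for 3 of the 9 members and below them for 3, where 35.2% and 33.9% of all tested genes did so.

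**Figure D1:**
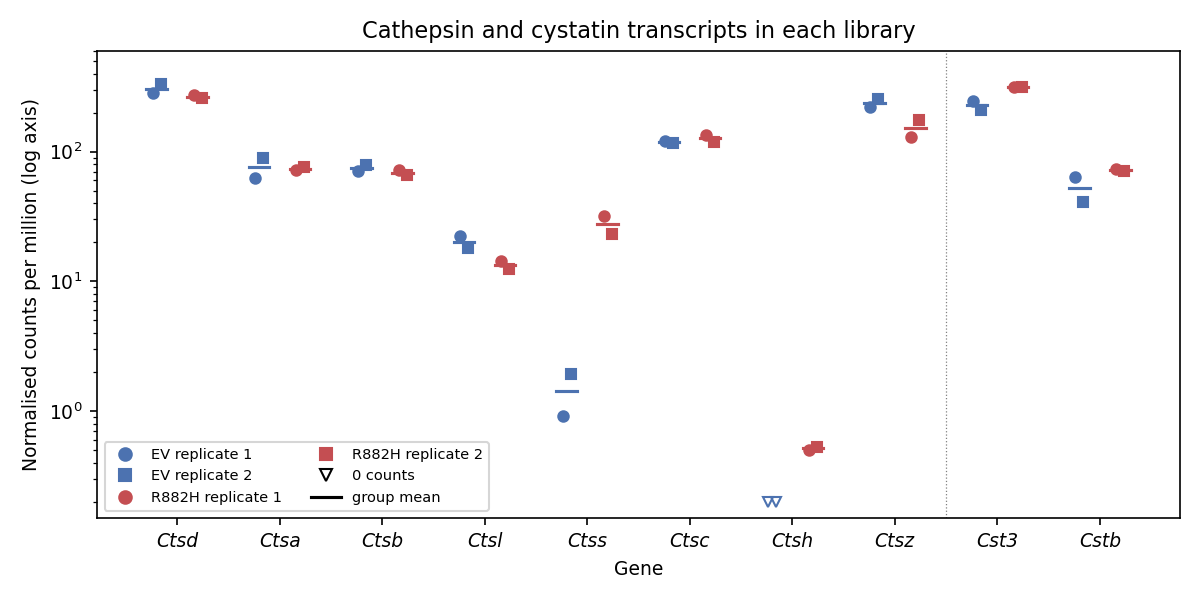
Normalised CPM (log axis) of the 8 cathepsin and 2 cystatin genes in each library, with circles for replicate 1, squares for replicate 2 and a bar at the group mean. Ctss lies at 0.917 and 1.94 CPM in EV and at 31.8 and 23.3 CPM in R882H and has the largest distance between the groups of the 9 tested members.

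Cathepsin S had the largest difference of the 9. Ctss (ENSMUSG00000038642, mm10 chromosome 3, 95526786 to 95556403, plus strand) encodes an endopeptidase that remains active at neutral pH. It was counted 5 and 11 times in EV, and 190 and 133 times in R882H. This gave 0.917 and 1.94 CPM in EV against 31.8 and 23.3 CPM in R882H. Both R882H libraries were far above both EV libraries, in which the transcript was near the lower limit of detection. The log2 fold change was 4.24 ± 0.31 (95% interval 3.62 to 4.87, edgeR adjusted p = 1.69e-13). With 16 EV counts in all, the ratio of summed counts, scaled to library size, was 19.2. Its exact 95% interval, which covers counting error only, ran from 11.7 to 34.0. Ctss was called under each of 13 other settings, with log2 fold changes from 3.81 (EV replicate 1 left out) to 4.87 (EV replicate 2 left out).

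The other endopeptidases of the cysteine class among the members, Ctsl and Ctsb, did not follow Ctss. Ctsl (ENSMUSG00000021477, chromosome 13, 64359337 to 64370890, minus strand), which encodes a broad-acting lysosomal endopeptidase, had 22.2 and 18.2 CPM in EV against 14.4 and 12.5 in R882H. Both R882H values were below both EV values, and Ctsl fell (log2 change −0.58 ± 0.20, 95% interval −0.99 to −0.18, edgeR adjusted p = 0.0197). That call ended without EV replicate 1 (edgeR adjusted p = 0.153), without R882H replicate 2 (0.166) and in DESeq2 (0.176), within a range of 0.0176 to 0.176 over 13 settings. Ctsb (ENSMUSG00000021939, chromosome 14, 63122462 to 63145923, plus strand), which encodes an enzyme that acts as endopeptidase and as peptidyl-dipeptidase, had 70.8 and 79.1 CPM in EV against 72.3 and 65.8 in R882H. The groups overlapped, and Ctsb was not called (log2 change −0.12 ± 0.13, 95% interval −0.39 to 0.16, edgeR adjusted p = 0.519).

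Among the exopeptidases of the cysteine class, Ctsz fell and Ctsc was not called. Ctsz (ENSMUSG00000016256, chromosome 2, 174427493 to 174439039, minus strand) encodes a carboxypeptidase also called cathepsin X. It had 222 and 253 CPM in EV against 129 and 174 in R882H, so that the R882H libraries were lower and differed from each other more than the EV libraries did. The log2 fold change was −0.65 ± 0.14 (95% interval −0.93 to −0.36, edgeR adjusted p = 0.000412). Without R882H replicate 1 it was −0.43 and the call ended (edgeR adjusted p = 0.105; range 2.41e-05 to 0.105 over 12 settings). Ctsc (ENSMUSG00000030560, chromosome 7, 88278085 to 88310888, plus strand), the dipeptidyl peptidase that trims granule protease precursors, had 121 and 116 CPM in EV against 134 and 120 in R882H. These ranges overlapped, and the log2 fold change was 0.10 ± 0.13 (95% interval −0.17 to 0.36, edgeR adjusted p = 0.599). Ctsh (ENSMUSG00000032359, chromosome 9, 90054152 to 90076089, plus strand), which encodes an aminopeptidase, had 0 and 0 counts in EV and 3 and 3 in R882H. Ctsh was too low to be tested, and no fold is given for counts this close to 0.

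Both cathepsins among the members that lie outside the cysteine class missed the threshold. Ctsd (ENSMUSG00000007891, chromosome 7, 142375911 to 142388038, minus strand), the aspartic protease, had the most cathepsin tags in every library, with 281 and 330 CPM in EV against 273 and 259 in R882H. Both R882H values lay just below both EV values, with a log2 change of −0.20 ± 0.13 (95% interval −0.47 to 0.07, edgeR adjusted p = 0.243). Without EV replicate 1, Ctsd passed the test (log2 change −0.31, edgeR adjusted p = 0.0487; range 0.0487 to 0.640 over 13 settings). Ctsa (ENSMUSG00000017760, chromosome 2, 164832873 to 164841032, plus strand), the serine carboxypeptidase that also protects lysosomal sialidase and beta-galactosidase, had 62.7 and 89.3 CPM in EV against 72.3 and 75.7 in R882H. The R882H values fell between the EV values (log2 change −0.04 ± 0.15, 95% interval −0.34 to 0.25, edgeR adjusted p = 0.850). The sign for Ctsa depended on the libraries, at 0.23 when EV replicate 2 was left out and −0.28 when EV replicate 1 was.

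The 2 inhibitor genes moved up by similar amounts. Cst3 (ENSMUSG00000027447, chromosome 2, 148871722 to 148875692, minus strand) had 248 and 210 CPM in EV against 315 and 317 in R882H. Both R882H libraries were above both EV libraries and close to each other. The log2 fold change was 0.46 ± 0.13 (95% interval 0.19 to 0.73, edgeR adjusted p = 0.00573). Leaving out either R882H library ended the Cst3 call (edgeR adjusted p = 0.0578 without replicate 1 and 0.0587 without replicate 2, range 0.00144 to 0.0587 over 13 settings), with log2 fold changes of 0.48 and 0.47. Cstb (ENSMUSG00000005054, chromosome 10, 78425669 to 78427622, plus strand) had 64.0 and 41.0 CPM in EV against 73.3 and 70.4 in R882H. The groups did not overlap, but EV replicate 2 was far below the other 3 libraries. The log2 fold change was 0.45 ± 0.16 (95% interval 0.14 to 0.77, edgeR adjusted p = 0.0206). It was 0.16 without EV replicate 2 (edgeR adjusted p = 0.417) and 0.81 without EV replicate 1, and the call also ended without R882H replicate 1 (0.0794) and in DESeq2 (0.154), within a range of 0.000449 to 0.417.

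**Figure D2:**
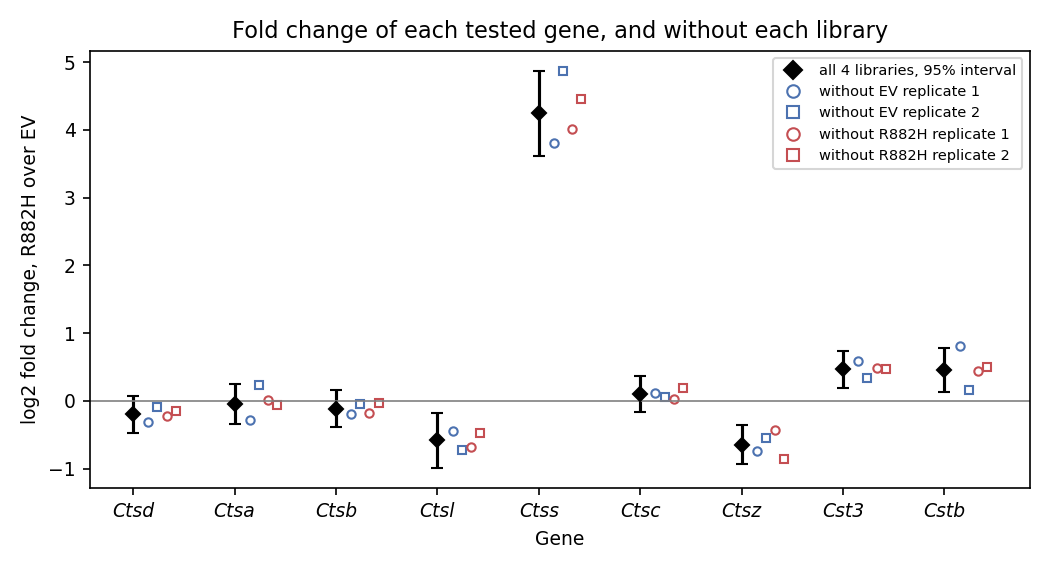
Log2 fold change (R882H over EV) of the 9 tested members with all 4 libraries (black, with 95% intervals from the edgeR fit) and with each library left out (open symbols). Ctss stays between 3.81 and 4.87, whereas Cstb ranges from 0.16 to 0.81 and Ctsa crosses 0.

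In EV the order of levels was Ctsd, Ctsz, Cst3, Ctsc, Ctsa, Ctsb, Cstb, Ctsl, Ctss and Ctsh. Library ranges overlapped for Ctsz (238 ± 22.5 CPM) and Cst3 (229 ± 26.8 CPM), Ctsa (76.0 ± 18.8 CPM) and Ctsb (74.9 ± 5.86 CPM), and, though not neighbours, Ctsa and Cstb (52.5 ± 16.3 CPM). All other neighbours were apart. In R882H the order opened with Cst3 (mean 316 CPM), then Ctsd (266 ± 9.28 CPM), Ctsz (152 ± 31.8 CPM) and Ctsc (127 ± 10.5 CPM). The ranges of Ctsz and Ctsc overlapped, as did those of Ctsa (74.0 ± 2.39 CPM) and Cstb (71.8 ± 2.05 CPM) and those of Cstb and Ctsb (69.1 ± 4.56 CPM). Ctss (27.6 ± 5.97 CPM) stood above Ctsl (13.4 ± 1.36 CPM) in R882H, and below it in EV (1.43 ± 0.725 against 20.2 ± 2.83 CPM).

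Summed over the 8 genes, cathepsin tags made up 781 and 888 CPM in EV against 728 and 731 in R882H, a mean of 834 ± 75.9 against 729 ± 2.55 CPM. Ctsd held 35.5% to 37.5% of that sum in all 4 libraries. The share of Ctss was 0.117% and 0.219% in EV and 4.37% and 3.19% in R882H, and that of Ctsz 28.4% and 28.5% in EV and 17.8% and 23.8% in R882H. The Ctss rise was thus a small part of all cathepsin tags. Summed tags of the 2 cystatin genes were 312 and 251 CPM in EV against 388 and 387 in R882H. They came to 40.0% and 28.3% of the cathepsin sum in EV and to 53.3% and 53.0% in R882H. That sum includes Ctsd and Ctsa, which lie outside the cysteine class that cystatins block. The percentages are therefore no measure of inhibitor against target. These sums and shares are descriptions of the libraries with no test. They include Ctsz, Ctsa and Ctsb, whose exons overlap other genes as described below.

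**Figure D3:**
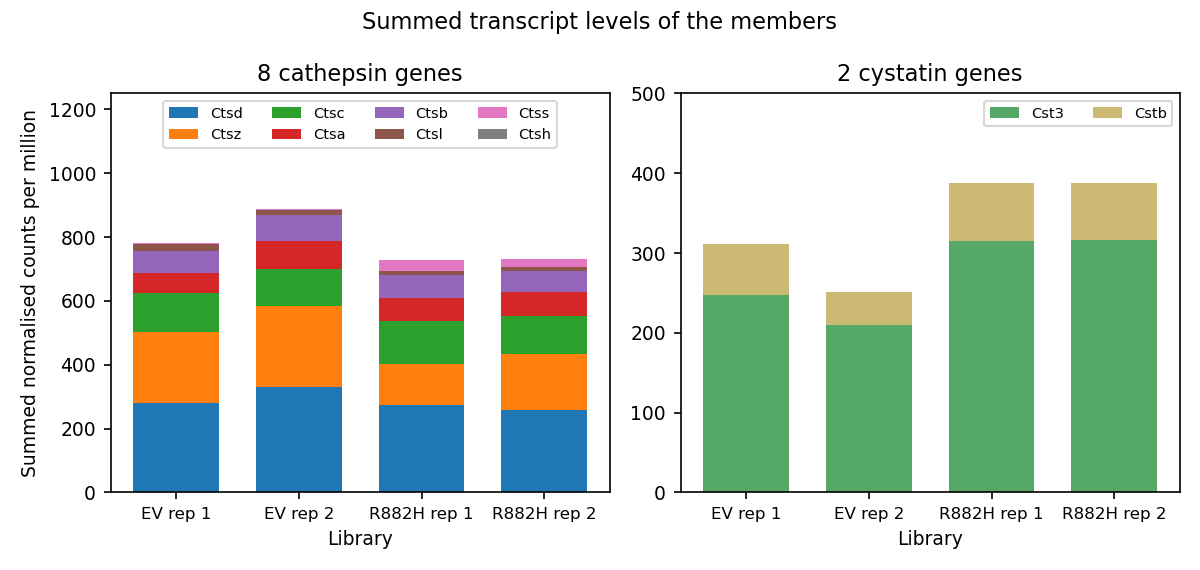
Stacked normalised CPM of the 8 cathepsin genes (left) and the 2 cystatin genes (right) in each library, on axes that start at 0. The cathepsin sums are 781 and 888 CPM in EV against 728 and 731 in R882H, and the cystatin sums 312 and 251 CPM in EV against 388 and 387 in R882H.

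The exons of 3 members overlap those of a gene on the opposite strand, and the strand setting of the counting is not given in the sources used here. At their 3′ ends, Ctsz and Nelfcd, a subunit gene of the negative elongation factor, share 10 exon bases. Nelfcd counts were 936 and 1103 in EV against 549 and 830 in R882H, beside 1209, 1436, 773 and 993 for Ctsz. The libraries stood in the same order for both genes, and Nelfcd fell by a similar log2 amount (−0.63 ± 0.16, edgeR adjusted p = 0.00224). The Nelfcd call ended without EV replicate 1 (0.112), without EV replicate 2 (0.277) and without R882H replicate 1 (0.255). Ctsa shares 495 exon bases with the phospholipid transfer protein gene Pltp, which had 256, 400, 364 and 371 counts beside 342, 506, 432 and 431 for Ctsa. It shares a further 324 with Neurl2, which had 8 to 14 counts per library. Ctsb shares 774 exon bases, up to its 3′ end, with the squalene synthase gene Fdft1, which had 311, 278, 263 and 233 counts beside 386, 448, 432 and 375. For Ctsz, Ctsa and Ctsb, tags in the shared bases therefore cannot be assigned to the member or its partner. The same limit holds for their place in the order of levels and for the cathepsin sums and shares above. Ctss, Ctsl, Ctsc, Ctsd, Ctsh, Cst3 and Cstb have no such partner with at least 10 counts.

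**Figure D4:**
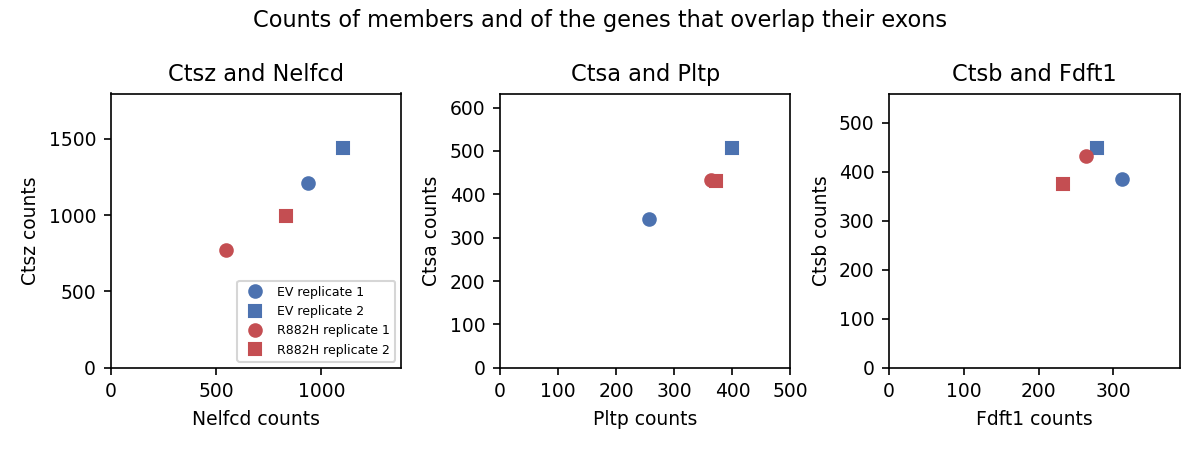
Raw counts of Ctsz, Ctsa and Ctsb (vertical) against those of the gene whose exons overlap theirs (horizontal), 1 point per library, on axes that start at 0. Ctsz rises from 773 to 1436 counts as Nelfcd rises from 549 to 1103, and Ctsa is lowest and highest in the same EV libraries as Pltp, while Ctsb and Fdft1 are both lowest in R882H replicate 2 and differ in the order of the other libraries.

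Promoter sequence is shown for 1 cysteine cathepsin that rose (Ctss), 1 that fell (Ctsz) and 1 that was not called (Ctsc), so that the regions in front of genes with different behaviour can be read side by side. Each is the 250 bases before the RefSeq start site on GRCm38.p6, 5′ to 3′ on the strand of the gene, at chr3:95526536-95526785 (plus strand), chr2:174439040-174439289 (minus strand) and chr7:88277835-88278084 (plus strand). None of the 3 windows covers an annotated exon of its own gene. Capitals mark matches on either strand to GGGCGG (a GC box), CCAAT or GAGGAAG (1 form of the sites read by ETS factors such as PU.1).
Ctss: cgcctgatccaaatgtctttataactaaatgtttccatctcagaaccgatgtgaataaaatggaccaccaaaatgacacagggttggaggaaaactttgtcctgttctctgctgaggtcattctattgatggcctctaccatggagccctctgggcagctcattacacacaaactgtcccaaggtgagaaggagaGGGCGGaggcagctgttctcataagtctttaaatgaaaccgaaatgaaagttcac
Ctsz: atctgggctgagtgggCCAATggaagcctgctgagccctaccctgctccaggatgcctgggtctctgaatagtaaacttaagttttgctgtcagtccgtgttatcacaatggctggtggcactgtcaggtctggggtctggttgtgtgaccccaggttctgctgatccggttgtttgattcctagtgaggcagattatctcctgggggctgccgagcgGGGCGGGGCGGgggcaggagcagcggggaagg
Ctsc: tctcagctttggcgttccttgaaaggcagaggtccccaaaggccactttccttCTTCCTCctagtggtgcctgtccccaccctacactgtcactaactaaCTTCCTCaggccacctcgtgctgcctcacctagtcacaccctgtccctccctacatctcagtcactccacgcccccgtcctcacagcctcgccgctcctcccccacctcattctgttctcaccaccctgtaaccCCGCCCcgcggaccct
Ctss has 1 GC box, at position −55 from the start site, and no match to the other motifs as written. Shorter forms such as gaggaa, which the Ctss window holds, were not marked. Ctsz has a CCAAT box at −234 and overlapping GC boxes at −32 and −27. Ctsc has a GC box at −16 and GAGGAAG matches, all on the reverse strand, at −197 and −150.

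RefSeq windows were found for 7 of the 10 members, 8 windows in all since Ctsa has a second start site. The E-box core CACGTG, which reads the same on both strands and is bound by MiT/TFE factors among others, was present in 3 of the 8 (Ctsd, Ctsl and the second Ctsa start), against 6.02% of 32851 windows of the same length in all genes. Those 3 windows cover an annotated exon of their own gene, as does that of Cst3, and the other 4 windows hold no CACGTG. The longer TCACGTG, which holds that core, was present in 2 of the 8 (Ctsd and Ctsa) against 3.13%. GGGCGG was present in 5 of the 8 against 32.7%, CCAAT in 1 against 33.8% and GAGGAAG in 1 against 10.6%.  These are matches of letters only, with no measurement of binding.

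Few other cathepsin genes were expressed. Of 14 further cathepsin genes, 12 had fewer than 10 counts over all libraries, including the 7 placental genes Ctsj, Ctsm, Ctsq, Ctsr, Cts3, Cts6 and Cts7 at 0. Both that could be tested rose. Called genes of this and the following lists stand beside 38.8% called among all tested genes (19.3% higher and 19.4% lower). Ctsg, a serine protease of neutrophil granules that shares only the name, had 4613 and 3836 counts in EV and 7001 and 6601 in R882H (762 ± 119 against 1165 ± 8.97 CPM, log2 fold change 0.61 ± 0.14, edgeR adjusted p = 0.000875). Ctso, a lysosomal cysteine protease, had 13, 31, 54 and 35 counts (log2 change 0.94 ± 0.35, edgeR adjusted p = 0.0292). Its call ended in DESeq2 (adjusted p = 0.240) and in edgeR when EV replicate 1 (0.334) or R882H replicate 1 (0.287) was left out.

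Among inhibitor genes outside the members, of 24 listed, 22 were in the table and 7 were tested, of which 3 rose and 2 fell. Cst7, the gene of cystatin F, a leukocyte cystatin that reaches lysosomes and blocks cathepsin C, had 577 and 594 counts in EV and 845 and 839 in R882H. The groups were well apart (105 ± 0.683 against 144 ± 4.17 CPM, log2 fold change 0.45 ± 0.13, edgeR adjusted p = 0.00554), though without R882H replicate 2 the call ended (0.0761). Serpinb1a, an inhibitor of neutrophil serine proteases, had 380 ± 8.61 CPM in EV against 543 ± 6.41 in R882H (log2 change 0.51 ± 0.13, edgeR adjusted p = 0.00228). Serpinb6b had 2, 0, 14 and 11 counts, a ratio of 11.9 with an exact 95% interval from 2.97 to 104. Its call ended without EV replicate 2 (edgeR adjusted p = 0.0652) and in DESeq2 (0.0602). Fetub, a member of the cystatin superfamily, had 13 and 16 counts in EV and 0 in both R882H libraries, at least 10.1-fold lower against a floor of 3 counts over the R882H group. Ctla2a, which resembles a cathepsin propeptide, had 58.0 ± 4.36 CPM in EV against 45.0 ± 2.11 in R882H (log2 change −0.36 ± 0.14, edgeR adjusted p = 0.0416). Without 1 library, the Ctla2a call ended for EV replicate 1 (0.135), R882H replicate 1 (0.136) and R882H replicate 2 (0.280). It also ended in DESeq2 (0.188) and with no low-count filter (0.0557), and its exons overlap Gm49391 and Gm49393. The stefin A genes Stfa1, Stfa2, Stfa2l1 and Stfa3, which are near-identical copies, were at 0.

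**Figure D5:**
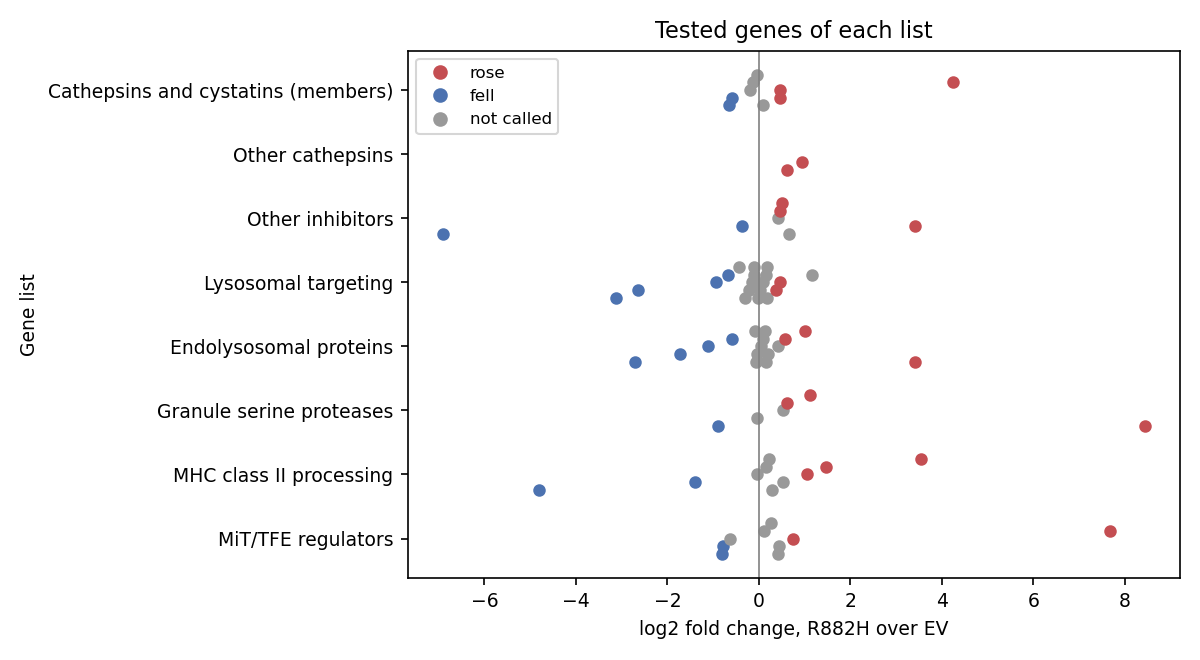
Log2 fold change (R882H over EV, edgeR fit) of every tested gene in the member list and 7 related lists, coloured by whether the gene rose, fell or was not called; vertical offsets within a list only separate points. Points beyond 4 in either direction come from genes with few counts in 1 group, namely Fetub, H2-Eb1, Prss34, Tfec and Ctss.

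In the machinery that carries hydrolases to lysosomes, 2 of 19 tested genes rose, 4 fell and 13 were not called (median log2 fold change −0.10, against 0.01 over all tested genes). The shares over all tested genes were 19.3% higher and 19.4% lower. Sort1, the gene of the sorting receptor sortilin, had 274 and 348 counts in EV and 35 and 40 in R882H (55.8 ± 7.90 against 6.44 ± 0.824 CPM). Every R882H value was far below every EV value, and Sort1 fell with a log2 change of −3.11 ± 0.20 (edgeR adjusted p = 7.29e-15). Nagpa, the uncovering enzyme that exposes mannose 6-phosphate, fell from 95.7 ± 10.6 to 50.1 ± 1.34 CPM (log2 change −0.93 ± 0.14). The receptor gene Sorl1 (−0.68 ± 0.17) and the hydrolase export gene Cln8 (−2.65 ± 0.51, from 25 and 30 counts to 7 and 2) also fell, on the log2 scale. Gnptg, a subunit of the enzyme that adds the phosphate tag (0.45 ± 0.16), and Scarb2, the receptor for glucocerebrosidase (0.37 ± 0.13), rose. Calls ended for Sorl1 without R882H replicate 2 (edgeR adjusted p = 0.122), and for both Gnptg (0.170, 0.155, 0.161) and Scarb2 (0.0683, 0.131, 0.154) with EV replicate 1 left out, with R882H replicate 1 left out, and in DESeq2. Scarb2 also lost its call without R882H replicate 2 (0.131), and exons of Gnptg overlap Unkl. The cation-dependent mannose 6-phosphate receptor M6pr was not called (162 ± 14.2 against 151 ± 9.31 CPM, log2 fold change −0.10 ± 0.13, edgeR adjusted p = 0.572). The other receptor, Igf2r, had 0 counts in all 4 libraries, which allows up to 3 counts over each group. M6pr and Igf2r were named for their role, outside the rule.

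Among 16 tested genes of endolysosomal proteins that work beside cathepsins, 3 rose, 4 fell and 9 were not called (median log2 fold change 0.07). Over all tested genes, 38.8% were called. Lgmn, the gene of legumain, an asparaginyl protease that processes several cathepsin precursors, had 13 and 9 counts in EV and 116 and 133 in R882H. The groups were wide apart (1.99 ± 0.562 against 21.4 ± 2.78 CPM, log2 fold change 3.42 ± 0.29, edgeR adjusted p = 1.27e-11). Cd68, a lysosomal membrane glycoprotein, rose with a log2 change of 1.01 ± 0.17. Ifi30, the lysosomal thiol reductase, had 98.1 ± 0.529 CPM in EV against 15.0 ± 1.31 in R882H and fell (log2 change −2.71 ± 0.15, edgeR adjusted p = 3.31e-16; its exons overlap 6330537M06Rik). Cd63, a tetraspanin of late endosomes, had 342 ± 38.5 CPM in EV against 104 ± 0.849 in R882H and fell (log2 change −1.72 ± 0.14). The partners of Ctsa in its lysosomal complex moved in opposite directions. The sialidase gene Neu1 fell from 70.0 ± 2.91 to 32.3 ± 4.48 CPM (log2 change −1.11 ± 0.15) and the beta-galactosidase gene Glb1, whose exons overlap Tmppe, rose from 32.0 ± 0.356 to 47.5 ± 1.12 CPM (0.57 ± 0.15). Of further abundant lysosomal genes, chosen after their values were seen, Laptm5 fell from 400 ± 80.0 to 268 ± 14.2 CPM (log2 change −0.58 ± 0.14, edgeR adjusted p = 0.00123), a call that ended without R882H replicate 2 (0.0522). Psap, Npc2, Lamp1 and Lamp2 were not called, with log2 fold changes from −0.06 to 0.20. Lamp2 passed the test without EV replicate 1 (0.35, edgeR adjusted p = 0.0389), and exons of Lamp1 overlap Grtp1.

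Genes of MHC class II processing, in which cathepsin S acts on the invariant chain, were called in both directions. Of 10 tested, 3 rose, 2 fell and 5 were not called, where 19.3% of all tested genes rose and 19.4% fell. The invariant chain gene Cd74 had 1, 1, 2 and 1 counts and was not tested. Neither were the class II chain gene H2-Aa (0, 0, 0 and 1 counts) and the class II regulator gene Ciita (0, 0, 0 and 2). H2-Ob, a chain of the peptide-loading modulator DO, had 16 and 6 counts in EV and 142 and 131 in R882H (log2 change 3.55 ± 0.30, edgeR adjusted p = 8.71e-12). The DM chain genes H2-DMb1 (1.48 ± 0.26) and H2-DMa (1.05 ± 0.16; exons overlap Brd2) rose on the log2 scale. The 2 tested class II chain genes fell, with H2-Ab1 at 29.1 ± 0.279 CPM in EV against 11.1 ± 1.32 in R882H (log2 change −1.39 ± 0.19) and H2-Eb1 at 17, 16, 0 and 1 counts, a ratio of EV over R882H of 34.6 with an exact 95% interval from 5.80 to 1409.

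Of the granule serine protease genes, the class that cathepsin C activates, 3 of 6 tested rose and 1 fell beside a Ctsc level that was not called. Over all tested genes, 19.3% rose and 19.4% fell. Ctsg, described above, and the basophil protease genes Mcpt8 (20.5 ± 0.300 against 44.3 ± 0.411 CPM, log2 fold change 1.11 ± 0.17) and Prss34 (1, 0, 241 and 211 counts) rose. Prss57, whose exons overlap Fstl3, fell (−0.88 ± 0.14). The elastase gene Elane (4.96 ± 1.28 against 7.22 ± 1.70 CPM) and the proteinase 3 gene Prtn3 (419 ± 8.66 against 406 ± 4.80 CPM) were not called; both were named for their role, outside the rule. Among 9 MiT/TFE factors and their regulators, which control lysosomal genes, 2 rose and 2 fell, beside 38.8% of all tested genes called. Tfec had 0, 1, 131 and 136 counts, and the folliculin gene Flcn rose (0.74 ± 0.17). Tfe3 (26.1 ± 1.21 against 15.1 ± 2.69 CPM, log2 fold change −0.79 ± 0.19) and Fnip2 (−0.80 ± 0.19) fell, with the Tfe3 call ending without R882H replicate 1 (edgeR adjusted p = 0.0628). Tfeb, named for its role outside the rule, had 14, 14, 21 and 19 counts and was not called (0.44 ± 0.41).

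Markers of other cell types also separated the groups, and their part in the Ctss, Cst3 and Lgmn differences was not tested. Of 14 macrophage and monocyte markers, 5 were tested, of which 3 rose and 1 fell. Their summed level was 93.0 to 104 CPM in EV and 162 to 176 CPM in R882H, of which Ccr2 alone made up 41.9 ± 4.21 and 95.9 ± 4.50 CPM. Ccr2, Cd68 and Cx3cr1 rose. Adgre1, the gene of the macrophage antigen F4/80, fell from 14.4 ± 0.375 to 3.86 ± 0.00953 CPM (log2 change −1.89 ± 0.27, edgeR adjusted p = 8.7e-07), and Csf1r, whose exons overlap Hmgxb3, was not called (22.9 ± 0.780 against 27.8 ± 3.78 CPM). The macrophage genes C1qa, C1qb, C1qc, Mrc1 and Mertk were at 0 counts in every library. Of 9 dendritic cell markers, the progenitor receptor Flt3 alone could be tested, and it rose (log2 change 0.65 ± 0.14). The summed level was 397 to 419 CPM in EV and 594 to 681 CPM in R882H. Nearly all of that sum was Flt3 (406 ± 15.6 CPM in EV against 637 ± 61.6 in R882H). Zbtb46 had 5, 4, 0 and 0 counts, Itgax 0, 0, 5 and 3, and Siglech, Cd209a and Ccr7 were at 0. B-lineage markers rose in 9 of 9 tested genes of 10, with a summed level of 739 to 753 CPM in EV and 2095 to 2116 CPM in R882H. The most abundant were the surrogate light chain genes Igll1 (325 ± 2.79 against 787 ± 54.5 CPM) and Vpreb1 (17.8 ± 3.91 against 388 ± 14.6 CPM; exons overlap Top3b) and the transcription factor gene Ebf1 (180 ± 6.26 against 289 ± 20.4 CPM). Basophil and mast cell markers summed to 120 to 135 CPM in EV and 501 to 503 CPM in R882H, with 5 of 6 tested genes of 10 higher and 1 lower, and Fcer1a, Cma1 and Tpsb2 at 0. The mast cell protease gene Cpa3 (22.5 ± 1.68 against 300 ± 17.3 CPM) and the receptor gene Kit (26.5 ± 8.70 against 77.6 ± 13.4 CPM) rose, and the transcription factor gene Gata2 fell (267 and 289 counts in EV, 190 and 132 in R882H). In these bulk libraries a change in the share of cells that express a gene and a change in its level per cell cannot be told apart.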

How the data were processed

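RNA of 4 libraries of mouse Hoxb8 cells (EV, n = 2; DNMT3A R882H, n = 2) was read with a QuantSeq 3′ protocol, per the labels' protocols. The authors deposited raw counts per Ensembl gene, 1 column per library. The submitters' processing notes name bcl2fastq 2.17.1.14, cutadapt 1.14, HISAT2 2.0.4, featureCounts (Subread 2.0.0), edgeR 3.34.0, limma 3.48.3 and mm10, with no role or order. The annotation, strand setting and treatment of multi-mapping reads were not given in the sources used here. Symbols and 1-based positions came from GENCODE M21 (GRCm38, the assembly of mm10), which matched 52489 of 52636 lines. Promoter windows came from RefSeq on GRCm38.p6.

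Total counts were 5470330 and 5605092 in EV and 5921985 and 5847609 in R882H. Libraries of a group differed beyond sampling noise (chi-square per degree of freedom 6.91 in EV and 4.61 in R882H). Differential expression used edgeR 4.0.16 in R 4.3.3 (filterByExpr, TMM factors, glmQLFit with robust estimation, glmQLFTest, Benjamini-Hochberg adjustment over 11444 genes, threshold 0.05). CPM used TMM-scaled library sizes. Standard errors were derived from the log2 estimate and its F statistic, and understate the error of genes with few counts. For a group at 0 counts, folds are bounds against a floor of 3 counts for the whole group. Where a ratio is printed for a group with 1 to 3 counts, its exact 95% interval is given, and other such genes are given as counts only. Such intervals and floors cover counting error only. Exon overlaps were recorded with genes of at least 10 counts. Alternatives were other scalings and filters, robust=FALSE, DESeq2 1.42.0, limma-voom (limma 3.58.1), a replicate block, each library left out and overlapping genes left out. The edgeR script was tested on simulated data with the same dispersion for every gene, which does not show its error rate in these libraries.

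The members and lists were chosen with earlier results of these data known. Named are all members, called genes of each related list (all where 6 or fewer, otherwise the 4 with the smallest p and up to 2 in the other direction), and the 3 markers of each cell type with the most counts. Beyond that rule stand 19 tested genes chosen after their values were seen (overlap partners, genes named for their role and members of small counts) and genes listed for having few or no counts.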

Additional observations from a re-analysis of the deposited data

How the results depend on the processing

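Of 88 genes that were tested and are named in the text, by the rule or beyond it, 62 were called, and 21 of these lost the call under at least 1 alternative; 58 of the 88 kept their direction and their side of the threshold under every alternative run. Ctss kept its call in all 13, Ctsz in 11 of 12, Cst3 in 11 of 13, and Ctsl and Cstb in 10 of 13. DESeq2 called 1297 genes higher and 1412 lower, against 2213 and 2222 in edgeR, and among the members 2 higher and 1 lower, against 3 and 2. Without genes whose exons overlap another gene, 1 member was lower, since Ctsz was not in that fit. With 1 library left out, edgeR called 1508 to 2065 genes higher and 1446 to 2168 lower, and 1 to 3 members higher and 1 to 2 lower; 1 member was higher without R882H replicate 1, and 1 lower without either R882H library. The log2 ratio of the summed cathepsin level (−0.19) ranged from −0.28 to −0.10 and that of the summed cystatin level (0.46) from 0.31 to 0.63. Signs turned for Ctsa without EV replicate 2 (0.23) and without R882H replicate 1 (0.0067), and for Gata3 (0.02 with all libraries) without EV replicate 1 (−0.02) and R882H replicate 1; leaving out single libraries gave Gata3 −0.0822 to 0.134. Signs also turned when single libraries were left out for Npc2 (−0.0315 to 0.129), Lamp1 (−0.138 to 0.0191), Pltp (−0.17 to 0.42) and Neurl2 (−0.60 to 0.26). The cause of these shifts was not tested. Replicate numbers are shared between the groups but the labels tie them to no common culture, and deviations of same-numbered libraries correlated with r = −0.0026 across genes. With the replicate block, 2196 genes were higher and 2229 lower, and 3 and 2 members, and no member call changed. The lone library of a reduced group was assumed to vary like the other group. Serpinb6b could not be tested without R882H replicate 1, as it then missed the count filter. Counts of called genes in the related lists were recomputed under the same settings after the data were seen. With 3 counts or fewer per library, Ctsh lies at the limit of this depth.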

Other observations

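Further marker lists gave the following values. Of 12 neutrophil maturation markers, 3 were tested. The collagenase gene Mmp8 rose (242 ± 3.52 CPM in EV against 319 ± 20.5 in R882H, a log2 difference of 0.40 ± 0.13, edgeR adjusted p = 0.0145), the granule gene Lcn2 fell to 3 and 1 counts in R882H from 164 and 224 in EV, and Cxcr2 was not called (0.74 on the log2 scale). The Mmp8 call ended without R882H replicate 1 (0.0594) and without R882H replicate 2 (0.188). Ly6g, S100a9, Camp, Ngp, Ltf, Mmp9 and Retnlg were at 0 counts in every library. Megakaryocyte markers summed to 876 to 1062 CPM in EV and 23.5 to 28.8 CPM in R882H, with the platelet chemokine gene Pf4 at 939 ± 134 CPM in EV and 12.8 ± 3.20 CPM in R882H. Of 4 tested, 2 fell (Pf4 and Ppbp), 1 rose (Itga2b) and Gp9 was not called. The Itga2b call ended without R882H replicate 1 (0.0514) and in DESeq2 (0.0976).

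Of 10 T and NK cell markers Gata3 alone was tested and was not called (24.2 ± 0.746 against 24.5 ± 2.56 CPM, log2 change 0.02; exons overlap Gm13256). Of 10 erythroid markers Hbb-bt (9.74 ± 2.04 against 7.28 ± 0.117 CPM) and Hbb-bs (2.16 ± 0.0583 against 1.37 ± 0.0465 CPM) were tested and not called. Of 8 stromal markers Pecam1, which blood cells also express, alone was tested and rose (2.79 ± 0.0519 against 11.7 ± 0.762 CPM). Of 12 immature myeloid markers, all tested, 4 rose and 3 fell. Of 11 RNA quality and stress markers, 9 were tested, 3 rose (Fos, Jun and mt-Co1) and 1 fell (Egr1), while mt-Nd1 and mt-Cytb, with the most counts, were not called. The Fos call ended without R882H replicate 1, and both the Jun and Egr1 calls ended in DESeq2 and when EV replicate 2 was left out, as well as for Jun when R882H replicate 1 was, and for Egr1 when R882H replicate 2 was. The mt-Co1 call ended without R882H replicate 1 (edgeR adjusted p = 0.160) and without R882H replicate 2 (0.0887).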
